A study of Homo sapiens with 6 samples.

Results

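The classical cadherins CDH1, CDH2 and CDH3, the intestinal cadherin CDH17 and the catenins CTNNA1, CTNNA2, CTNNB1, CTNND1 and JUP were examined in SW620 cells that overexpress ELAPOR1. The 9 genes were taken by symbol from the 60605 genes of the deposited table, and each symbol matched 1 row. They were selected on the difference in counts and FPKM between ELAPOR1 and vector cells, in particular the fall of CDH1 beside CDH17 and the catenins. Their values in that comparison are therefore a description, and no test is drawn from them.

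Classical cadherins are single-pass membrane proteins that bind each other between neighbouring cells through calcium-dependent extracellular repeats. Their cytoplasmic tail binds beta-catenin (CTNNB1) or plakoglobin (JUP), which recruit alpha-catenin (CTNNA1, or CTNNA2 in neurons) and through it the actin cytoskeleton, while p120-catenin (CTNND1) binds nearer the membrane and keeps the cadherin at the cell surface. CDH17, or LI-cadherin, has a short tail that does not bind catenins and mediates adhesion in intestinal epithelium. Beta-catenin is also the transcriptional effector of canonical Wnt signalling, and E-cadherin (CDH1) holds part of it at the membrane.

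SW620 is an established human colorectal cancer line, grown out from a metastasis in a lymph node. The 3 ELAPOR1 libraries came from cells infected with lentivirus carrying ELAPOR1 in pLVX-IRES-Puro, and the 3 vector libraries from cells carrying the empty vector; both populations were infected at a multiplicity of 20 with virus packaged in HEK293T cells and selected with 2 ug/ml puromycin. Each is a selected population, and the labels do not say whether the 3 libraries of a group came from separate infections or cultures, so the spread between them may be technical. Poly(A) RNA was sequenced to between 16457436 and 19268166 counts in ELAPOR1 libraries and between 16401813 and 20571924 counts in vector libraries. ELAPOR1 itself averaged 21100 CPM in ELAPOR1 cells and 10.4 CPM in vector cells. Among colon epithelial markers, EPCAM averaged 177 FPKM in ELAPOR1 cells and 182 FPKM in vector cells and VIL1 56.7 and 59.6 FPKM, whereas KRT20 averaged 0.353 FPKM in ELAPOR1 cells and 1.15 FPKM in vector cells and LGALS4 0.397 and 0.190 FPKM. CEACAM5 fell by 3.00 on the log2 scale, to 2.98 FPKM in ELAPOR1 cells against 24.3 FPKM in vector cells, and KRT19 by 0.45, to 246 FPKM in ELAPOR1 cells against 342 FPKM in vector cells (adjusted p of 8.52e-49 and 8.38e-22, edgeR); CEACAM5 counts are uncertain because its family holds close copies. Of 9 colon epithelial markers 5 were called lower and none higher, where 11.4% of all tested genes were called lower and 10.0% higher. The 5 include KRT8, with a log2 fold change of only -0.14. The summed level of the 9, most of it KRT8 and KRT18, was 1790 to 1820 FPKM in ELAPOR1 libraries and 1960 to 2060 FPKM in vector libraries. Of 6 fibroblast markers 3 were tested and 1, LUM, was called higher, and CDH5 and KDR, which mark endothelium, had no count. The part of these differences in the cadherin and catenin values was not tested. In bulk RNA, fewer cells with a transcript and less of it per cell cannot be told apart.

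Across all genes, edgeR's quasi-likelihood test called 3427 of 16003 tested genes at a Benjamini-Hochberg adjusted p under 0.05, or 21.4%, with 10.0% called higher and 11.4% called lower in ELAPOR1 cells. Of the 9 cadherin and catenin genes, 8 passed the filter on low counts and 4 were called: CDH17 higher, and CDH1, JUP and CTNNB1 lower. The other 4 tested genes, CDH3, CTNNA1, CTNNA2 and CTNND1, were not called, and CDH2 was not tested. CDH3 passed the filter through its ELAPOR1 libraries alone, so its presence among the tested genes already depended on being higher there. The CPM of the groups did not overlap for 5 of the 8 tested genes, against 33.8% of all tested genes. CDH3 is among the 5, but all 3 of its ELAPOR1 libraries and 0 of its vector libraries lay above the filter level. Its lack of overlap was thus fixed by the way it passed the filter.

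CDH1, which encodes E-cadherin (ENSG00000039068, GRCh38 chromosome 16, 68737292 to 68835537, plus strand), was the most abundant cadherin in both groups. Its level was 40.02, 39.33 and 40.15 FPKM in the 3 ELAPOR1 libraries, against 70.11, 66.16 and 69.23 FPKM in the 3 vector libraries. The groups did not overlap, and the lowest vector library stood well above the highest ELAPOR1 library. The mean was 39.8 ± 0.441 FPKM in ELAPOR1 cells and 68.5 ± 2.07 FPKM in vector cells (SD, n = 3 each), and CDH1 fell by 41.0%, a log2 fold change of -0.76 (SE 0.0325). Only 2.20% of tested genes had a lower log2 fold change. CDH1 was among the abundant transcripts, its level in vector cells exceeding that of 98.0% of tested genes in CPM. Its counts ran from 4002 to 4605 in ELAPOR1 libraries and from 6899 to 8270 in vector libraries. The coefficient of variation of its CPM was 1.34% in ELAPOR1 cells and 2.83% in vector cells, where counting error alone gives 1.52% and 1.13%.

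CDH17 (ENSG00000079112, chromosome 8, 94127162 to 94217303, minus strand) moved the other way from a low level. It measured 5.81, 4.35 and 5.35 FPKM in ELAPOR1 libraries, against 2.40, 2.62 and 2.56 FPKM in vector libraries. The vector libraries lay close together, the ELAPOR1 libraries spread more widely, and the groups did not overlap. The mean was 5.17 ± 0.746 FPKM in ELAPOR1 cells and 2.53 ± 0.114 FPKM in vector cells, and the log2 fold change was 1.05 (SE 0.113), a 2.07-fold rise that exceeded the log2 fold change of 98.2% of tested genes. The rise rests on 325 to 373 counts in ELAPOR1 libraries and 163 to 209 in vector libraries. ELAPOR1 replicate 2 was the lowest of its group, and the log2 fold change was 1.16 without it and 0.96 without ELAPOR1 replicate 1. The coefficient of variation in ELAPOR1 cells was 14.7%, where counting error gives 5.30%, whereas in vector cells it was 4.63% against a counting error of 7.37%.

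N-cadherin and P-cadherin were at or near the limit of detection. CDH2, which encodes N-cadherin (ENSG00000170558, chromosome 18, 27932879 to 28177946, minus strand), had no count in the 3 ELAPOR1 libraries or in vector replicates 2 and 3, and 1 count in vector replicate 1. A count of 0 was taken to allow an expected count of up to 3. That is 0.156 to 0.182 CPM in the ELAPOR1 libraries and 0.146 to 0.183 CPM in the vector libraries. These limits are probable rather than absolute and cover counting error only. CDH2 expression was therefore not detectable at this depth in ELAPOR1 cells, where CDH1 was lower. CDH3, which encodes P-cadherin (ENSG00000062038, chromosome 16, 68636189 to 68727468, plus strand), had 11, 15 and 16 counts in ELAPOR1 libraries, against 9, 8 and 8 in vector libraries. Its log2 fold change of 0.82 (SE 0.52) was not called, and the lack of overlap between its groups followed from the filter. At 0.12 ± 0.02 FPKM in ELAPOR1 cells and 0.07 ± 0.01 FPKM in vector cells it was a trace transcript beside CDH1. CDH3 transcripts also share 11.4% of their words of 50 bases with other GENCODE 29 genes, so part of so few reads could belong elsewhere.

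**Figure D1:**
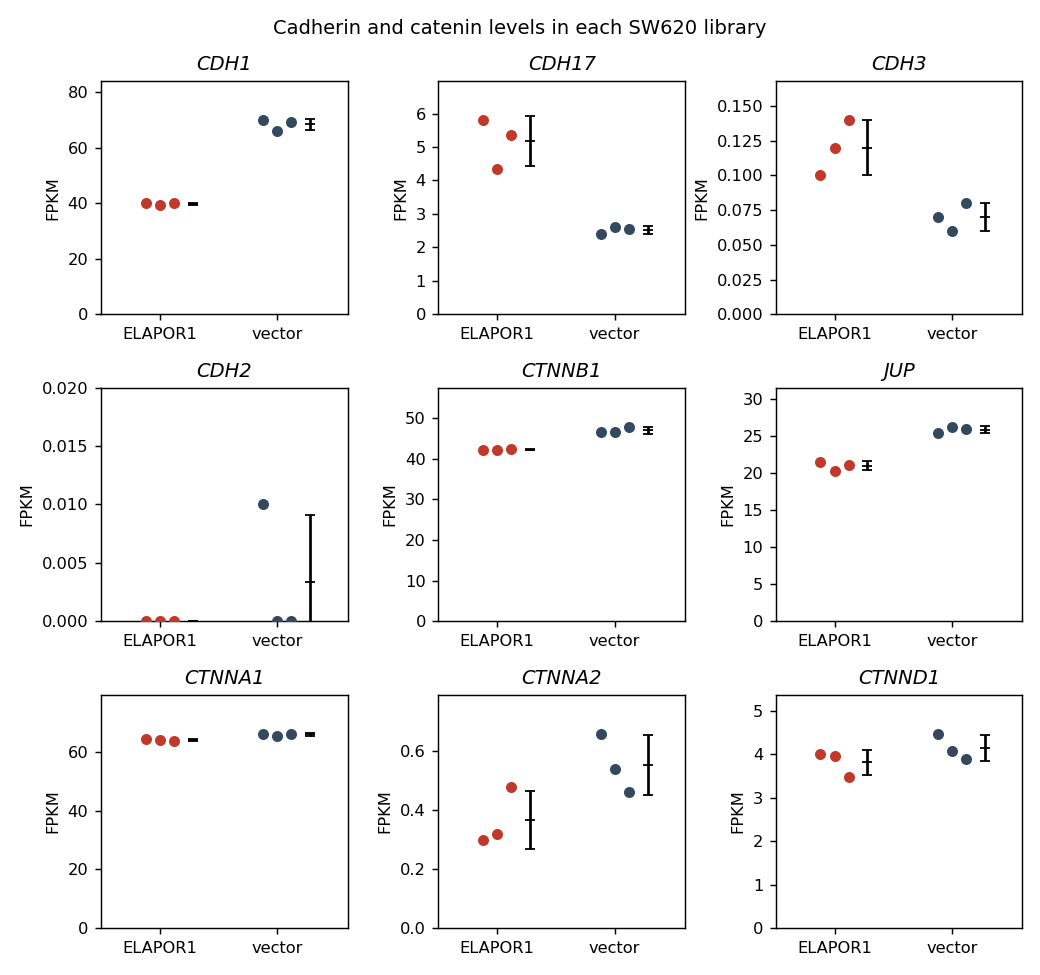
FPKM of the 9 genes in each library, 1 panel a gene with its own axis from 0; points are libraries, and the bar beside them is the mean ± SD of 3. CDH1 stands near 40 in the ELAPOR1 libraries and at 66.16 or above in the vector libraries, CDH17 runs the opposite way at 4.35 or above in ELAPOR1 libraries and 2.62 or below in vector libraries, and the CTNNA1 points of the groups lie close together.

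JUP and CTNNB1, the catenins that recruit alpha-catenin to the cadherin tail, were both lower, by much less than CDH1. JUP, which encodes plakoglobin (gamma-catenin), shared by adherens junctions and desmosomes (ENSG00000173801, chromosome 17, 41754604 to 41786931, minus strand), measured 21.52, 20.34 and 21.05 FPKM in ELAPOR1 libraries, against 25.38, 26.26 and 25.99 FPKM in vector libraries. The groups did not overlap, and JUP fell by 17.8%, a log2 fold change of -0.28 (SE 0.0433) that 11.5% of tested genes lay below. CTNNB1, which encodes beta-catenin (ENSG00000168036, chromosome 3, 41194741 to 41260096, plus strand), measured 42.11, 42.12 and 42.36 FPKM in ELAPOR1 libraries, against 46.50, 46.51 and 47.90 FPKM in vector libraries. Every ELAPOR1 library was below every vector library, but the difference was small: CTNNB1 fell by 8.78%, a log2 fold change of -0.13 (SE 0.0291), and 24.7% of tested genes had a lower one. CTNNB1 was called with 8150 to 9544 counts in ELAPOR1 libraries and 9238 to 11251 in vector libraries. Of the 2 genes, JUP was lower relative to CTNNB1 as well, at 0.497 ± 0.0141 times the CTNNB1 level in ELAPOR1 cells and 0.551 ± 0.0119 times in vector cells.

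Among the 5 members with promoter windows in the RefSeq table, only JUP had the E-box CAGGTG or its reverse complement CACCTG. This 6-base word is bound by repressors of the SNAIL and ZEB families that act on CDH1. Windows of 250 bases before an annotated start were found for CDH2, CTNNA1, CTNNA2, CTNNB1 and JUP and were searched on both strands. CDH1, CDH3, CDH17 and CTNND1 had no window and were not searched, so JUP could not be compared with CDH1. The second JUP start had 2 such words, 54 and 43 bases before it, with 5 bases between them. Its window lies within the extent of the JUP gene, downstream of the first start. The stretch around them is shown because it sets the paired words of JUP apart from the windows of CTNNB1 and the alpha-catenin genes, which had none (GRCh38.p14, chr17:41786007-41786036, minus strand, 60 to 31 bases before the start, with the E-box words in capitals).
JUP second start: tggcccCACCTGccgagCAGGTGagcgcac
The words themselves are common. At least 1 was present in 17.5% of the 35116 windows in the table and at least 2 in 2.53%. The stretch is a sequence match and was not measured for binding in these data.

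Alpha-catenin links the complex to actin. CTNNA1, the epithelial form (ENSG00000044115, chromosome 5, 138610967 to 138935034, plus strand), measured 64.56, 64.12 and 63.59 FPKM in ELAPOR1 libraries, against 66.26, 65.46 and 66.31 FPKM in vector libraries. The groups did not overlap in FPKM, but they did in CPM scaled by TMM factors, at 567 to 577 CPM in ELAPOR1 libraries and 576 to 582 CPM in vector libraries. Its log2 fold change was -0.02 (SE 0.0285), and it was not called. With 9382 to 10909 counts in ELAPOR1 libraries and 9604 to 11890 in vector libraries it was the most deeply sequenced of the 9 genes. CTNNA2, the neuronal form (ENSG00000066032, chromosome 2, 79185231 to 80648861, plus strand), had 37, 46 and 65 counts in ELAPOR1 libraries, against 97, 84 and 57 in vector libraries. ELAPOR1 replicate 3 lay above vector replicate 3, so the groups overlapped. The log2 fold change of -0.59 (SE 0.234) was not called, and 3.91% of tested genes had a lower one. CTNNA2 passed the threshold at -0.83 without ELAPOR1 replicate 3 and at -0.70 without vector replicate 3. Without any other single library it was not called (adjusted p of 0.103 to 0.261 by edgeR), nor was it with DESeq2 (0.192). LRRTM1, a neuronal synaptic gene that lies within CTNNA2 on the opposite strand, had 64, 98 and 81 counts in ELAPOR1 libraries, against 127, 122 and 119 in vector libraries, and fell by 0.52 on the log2 scale (adjusted p of 0.0271, edgeR). That call was lost without ELAPOR1 replicate 1 or 3 or vector replicate 1 or 3 (0.0507 to 0.121) and with DESeq2 (0.0992). The 2 genes share no exon base in GENCODE 29, but no source used here gives the strand setting of the counting, and the part of LRRTM1 transcripts in the CTNNA2 counts was not tested.

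CTNND1, which encodes p120-catenin (ENSG00000198561, chromosome 11, 57753243 to 57819546, plus strand), was measured at 4.0, 3.97 and 3.48 FPKM in ELAPOR1 libraries, against 4.48, 4.07 and 3.89 FPKM in vector libraries. The groups overlapped, the log2 fold change was -0.10 (SE 0.0589), and CTNND1 was not called. Its level is less certain than its fold change. The deposited exonic length of 15212 bases compares with 8798 bases in GENCODE 29, and with the shorter length the level becomes 6.60 ± 0.503 FPKM in ELAPOR1 cells and 7.17 ± 0.525 FPKM in vector cells. A second gene on the same strand, listed by its identifier ENSG00000288534, covers 98.3% of the extent of CTNND1 and holds 116 counts in all beside 6686 for CTNND1. Reads in exons shared by 2 genes may be left uncounted, which was not tested.

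**Figure D2:**
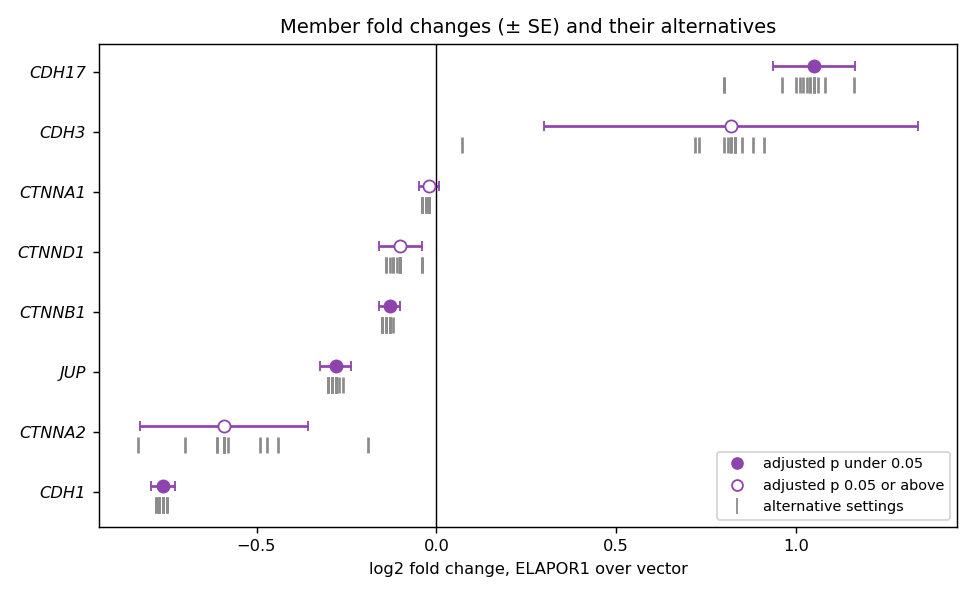
Log2 fold change of the 8 tested genes, ELAPOR1 over vector; circles with bars are the edgeR value ± SE, filled where called, and grey ticks are the values under the other settings, including each library left out. The ticks of CDH1 lie between -0.78 and -0.75 and those of CTNNB1 between -0.15 and -0.12, whereas those of CTNNA2 spread from -0.83 to -0.19 and those of CDH3 from 0.07 to 0.91.

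The order of the 9 levels differed between the groups. In ELAPOR1 cells the order by FPKM was CTNNA1, CTNNB1, CDH1, JUP, CDH17, CTNND1, CTNNA2, CDH3 and CDH2, and no neighbours in it overlapped between libraries. In vector cells it was CDH1, CTNNA1, CTNNB1, JUP, CTNND1, CDH17, CTNNA2, CDH3 and CDH2, where CDH1 and CTNNA1 overlapped in range although CDH1 was higher in each of the 3 libraries. CDH1 thus stood below CTNNA1 and CTNNB1 in the ELAPOR1 libraries only. CDH17 stood above CTNND1 in ELAPOR1 libraries, at 1.36 ± 0.234 times its level, and below it in vector libraries, at 0.613 ± 0.0669 times. That exchange depends on the gene length used: with GENCODE 29 lengths, an alternative chosen after seeing the data, the ratio was 0.783 ± 0.135 in ELAPOR1 cells and 0.353 ± 0.0383 in vector cells. The exchange also rests on a CTNND1 level that may lack reads from exons shared with another gene, which was not tested.

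Expressed as ratios within a library, the catenins were higher relative to E-cadherin in ELAPOR1 cells. There were 1.05, 1.07 and 1.06 FPKM of CTNNB1 for each FPKM of CDH1 in ELAPOR1 libraries, against 0.663, 0.703 and 0.692 in vector libraries. For CTNNA1 the ratio to CDH1 was 1.61 ± 0.0235 in ELAPOR1 cells and 0.964 ± 0.0228 in vector cells, and for JUP it was 0.526 ± 0.0104 and 0.378 ± 0.0176. These ratios carry the fall of CDH1 in their denominator and are the same contrast in another form. CTNNB1 and JUP, the catenins that recruit alpha-catenin, together came to 1.59 ± 0.00568 times CDH1 in ELAPOR1 cells and 1.06 ± 0.0374 times in vector cells. CDH1 and CDH17 came closer to each other: the CDH1 level was 6.89, 9.04 and 7.5 times that of CDH17 in ELAPOR1 libraries, against 29.2, 25.3 and 27.0 times in vector libraries.

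**Figure D3:**
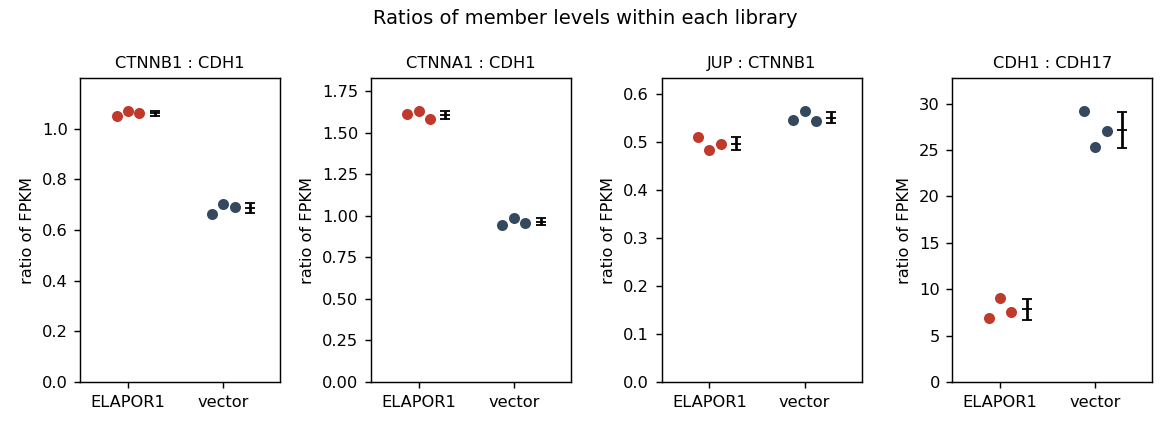
Ratios of FPKM between members within each library, with axes from 0; points are libraries and bars the mean ± SD of 3. CTNNB1 to CDH1 is above 1 in the ELAPOR1 libraries and at 0.703 or below in the vector libraries, CTNNA1 to CDH1 shows the same order, JUP to CTNNB1 is slightly lower in ELAPOR1 libraries, and CDH1 to CDH17 is at 9.04 or below in ELAPOR1 libraries and at 25.3 or above in vector libraries.

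Within the whole family of 23 genes named CDH and a number, few were expressed. In all, 9 had no count in any library, 6 were tested and 4 averaged at least 1 FPKM in vector cells: CDH1, CDH17, CDH13 and CDH24. CDH13, a cadherin held in the membrane by a lipid anchor with no cytoplasmic tail, averaged 2.55 FPKM in ELAPOR1 cells and 2.35 FPKM in vector cells, with an adjusted p of 0.247 by edgeR. CDH1 supplied 80.6%, 82.6% and 80.1% of the summed cadherin FPKM in ELAPOR1 libraries, against 91.7%, 91.5% and 91.2% in vector libraries. CDH17 supplied 10.5% ± 1.29 in ELAPOR1 cells and 3.38% ± 0.242 in vector cells. The summed cadherin FPKM was 49.1 ± 1.34 in ELAPOR1 cells and 74.9 ± 2.24 in vector cells, while the summed FPKM of the 5 catenins was 131 ± 0.910 and 144 ± 0.888.

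By the Pearson correlation of log2 CPM over the 6 libraries, the genes most like CDH1 among 9699 genes of at least 10 CPM were NRP1, CTNNBIP1, ETS2 and SLC12A2, with correlations of 0.9987 to 1.0000. The 6 points form 2 groups of 3, so these correlations mainly record a similar difference between the groups relative to the spread. CTNNBIP1, which encodes an inhibitor of the binding of beta-catenin to TCF factors, is itself a partner of a member and fell by 0.25 on the log2 scale (adjusted p of 0.00445 by edgeR), averaging 36.2 CPM in ELAPOR1 cells and 43.0 CPM in vector cells. NRP1, the neuropilin co-receptor of semaphorins and VEGF, had a log2 fold change of -0.93, SLC12A2, a chloride cotransporter gene, -0.83, and the transcription factor gene ETS2 -0.56. The genes most like CDH17 were CLDN1, AFG3L2, ACBD5 and APP, with correlations of 0.9931 to 0.9993. CLDN1, the tight junction protein claudin-1, rose by 0.26 on the log2 scale (adjusted p of 1.85e-08), to 235 CPM in ELAPOR1 cells against 196 CPM in vector cells. AFG3L2 and APP, which encode a mitochondrial protease subunit and the amyloid precursor protein, had log2 fold changes of 0.15 each, and ACBD5 was not called (adjusted p of 0.107). The call of AFG3L2 was lost when any library other than ELAPOR1 replicate 2 was left out, with adjusted p of 0.0560 to 0.116.

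Within 500 kb of CDH1, 18 genes were tested, 2 were called higher and 0 lower, where 10.0% and 11.4% of all tested genes were. So few genes cannot set these counts apart from those shares. Log2 fold changes had a median of 0.09 and a range of -0.22 to 1.04. The highest was that of ENSG00000261469, which was not called (SE 0.521) and averaged only 0.873 CPM in ELAPOR1 cells and 0.413 CPM in vector cells. CDH3, 9.8 kb away on the same strand, had no called change, and TANGO6, 8.0 kb on the other side, had a log2 fold change of 0.13 (adjusted p of 0.0816). SLC7A6, an amino acid transporter gene, and COG8, a Golgi tethering gene, rose by 0.20 and 0.13. The call of COG8 was lost without any single library except ELAPOR1 replicate 1, at adjusted p of 0.0614 to 0.200, and SLC7A6 lost its call with limma on log2(FPKM + 1), at an adjusted p of 0.102. Within 500 kb of CDH17, 12 genes were tested, 1 was called higher and 1 lower, near the shares of all tested genes, with a median of -0.02. TMEM67, a ciliary gene, rose by 0.34, a call lost without ELAPOR1 replicate 1, vector replicate 1 or vector replicate 2 (adjusted p of 0.0568 to 0.145). ESRP1, an epithelial splicing regulator 424 kb from CDH17, fell by 0.33 (adjusted p of 2.07e-10), opposite to its neighbour.

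**Figure D4:**
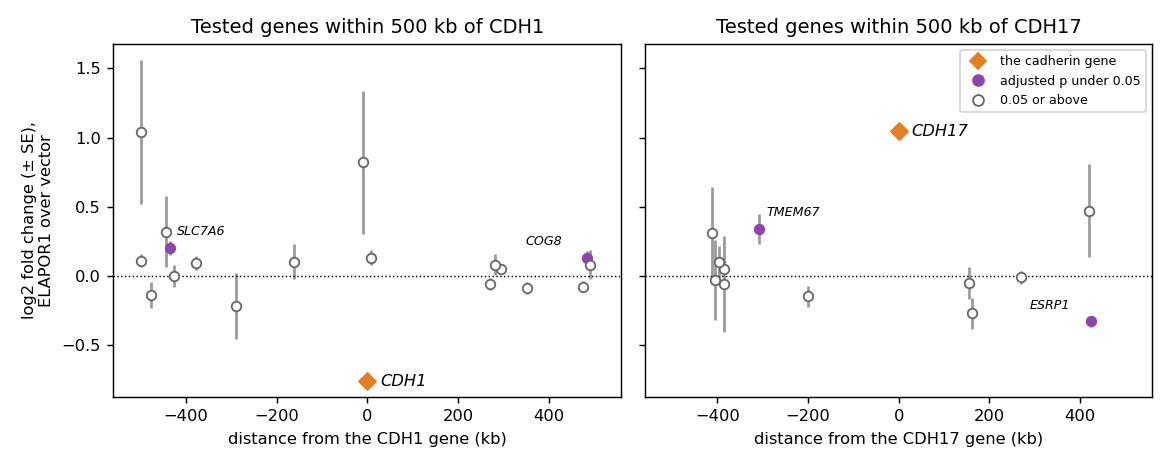
Log2 fold change (± SE, edgeR) of the tested genes within 500 kb of CDH1 (left) and CDH17 (right) against the distance from that gene; the diamond is the cadherin, filled circles were called. CDH1 lies below all of its 18 tested neighbours and CDH17 above all of its 12. Both cadherins were selected on this same difference, so such a position was likely beforehand.

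Around these genes, 10 lists of cadherin relatives, junction partners, regulators and catenin effectors held 162 genes, of which 121 were tested. In all, 14 were called higher, 11.6% of those tested, and 24 lower, 19.8%, where 10.0% and 11.4% of all genes were called. The lists were chosen with earlier results known, and their shares are descriptions. The median log2 fold change of all tested genes was 0.00407.

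Among other cadherins, 6 of 23 listed genes were tested and only CDHR2 was called. CDHR2, an intermicrovillar cadherin of the intestinal brush border, rose by 0.44 on the log2 scale (SE 0.116, adjusted p of 0.00288), to 15.2 CPM in ELAPOR1 cells against 11.3 CPM in vector cells, and lost its call without ELAPOR1 replicate 2, at an adjusted p of 0.0673. The median of the list was -0.00157. In the list of catenin relatives and actin linkers, 4 of 18 tested genes were higher and 5 lower, with a median of -0.0278. AJUBA, a LIM protein that binds alpha-catenin, rose by 0.50 (adjusted p of 4.85e-15). NECTIN2, an adhesion receptor that works beside cadherins, fell by 0.38 (adjusted p of 9.14e-07), to 45.8 CPM in ELAPOR1 cells against 59.6 CPM in vector cells. Of the p120 relatives, PKP4 was narrowly called lower, with a log2 fold change of -0.11 (adjusted p of 0.0491 by edgeR), and ARVCF was not called, at 0.04. Vinculin (VCL), which binds stretched alpha-catenin, had 0.05 (adjusted p of 0.284) and was not called. Of 7 tested desmosome genes 4 were lower and none higher, with a median of -0.112. These were DSC2 at -0.37, PKP3 at -0.19, DSP at -0.13 and PKP2 at -0.11, and PKP1 was not tested. The DSC2 call was lost without ELAPOR1 replicate 2 or 3 or vector replicate 1 or 3 (adjusted p of 0.0920 to 0.154), the PKP2 call without any single library except ELAPOR1 replicate 3 (0.0519 to 0.241), and the DSP call with limma on log2(FPKM + 1), at 0.0833.

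Of 18 listed repressors of CDH1 transcription, 12 were tested, 1 was higher and 2 lower, with a median of -0.0688. The 25.0% called is near the 21.4% of all tested genes. The 3 called genes are general cofactors or E proteins: SIN3A at 0.19, TCF3 at -0.14 and HDAC2 at -0.15, of which SIN3A lost its call without vector replicate 2 (adjusted p of 0.0543) and TCF3 without vector replicate 3 (0.0606). The repressors best known in this role were low and not called. SNAI1 averaged 3.12 FPKM in ELAPOR1 cells and 3.39 FPKM in vector cells, with an adjusted p of 0.809, SNAI2 1.52 and 1.19 FPKM, with 0.180, and ZEB1 1.17 and 1.27 FPKM, with 0.637. ZEB2 had 11 counts over the 6 libraries and TWIST1 had 1. Of 10 tested factors that promote epithelial gene expression, 1 was higher and 3 lower, with a median of -0.0472. KLF5, a Kruppel-like factor of intestinal crypts, fell by 0.29 (adjusted p of 7.23e-12), to 321 CPM in ELAPOR1 cells against 394 CPM in vector cells, and ESRP1 by 0.33. OVOL2 rose by 0.71 (adjusted p of 0.00425), to 6.19 CPM in ELAPOR1 cells against 3.82 CPM in vector cells, a call lost without vector replicate 1 at 0.0574. GRHL2, a direct activator of CDH1 in other epithelia, had 19 counts over all libraries and was not tested.

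Of 6 intestinal factors linked to CDH17, 4 were tested, 1 was lower and none higher, with a median of 0.0369. CDX2, which activates CDH17 in intestinal cells, fell by 0.56 on the log2 scale (SE 0.083, adjusted p of 1.48e-07), to 22 ± 1.01 CPM in ELAPOR1 cells against 32.4 ± 2.12 CPM in vector cells, in the same libraries in which CDH17 was higher. HNF4A had a log2 fold change of -0.04 and was not called (adjusted p of 0.549). CDX1 had 3 counts over the 6 libraries and was not tested.

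**Figure D5:**
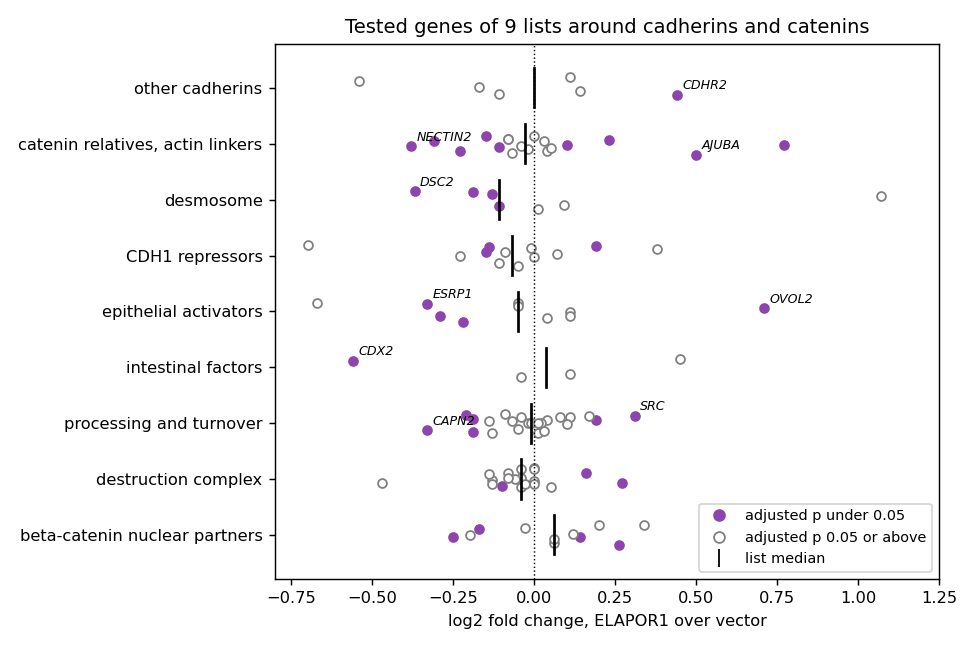
Log2 fold change, ELAPOR1 over vector, of the tested genes of 9 lists; filled circles were called, open circles were not, black bars are list medians, and labels mark genes of the text with a change over 0.3. The medians lie near 0, with the desmosome list lowest at -0.112, and OVOL2 at 0.71 and CDX2 at -0.56 stand far out among the called genes.

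Of 23 tested genes that process or remove cadherins, 2 were higher and 4 lower, with a median of -0.0142. The tyrosine kinase gene SRC rose by 0.31 (adjusted p of 0.000518), while CAPN2, a calpain, and ARF6, a GTPase of E-cadherin endocytosis, fell by 0.33 and 0.21. The sheddase gene ADAM10 fell by 0.19, a call lost with limma on log2(FPKM + 1) and no filter (adjusted p of 0.0688), and the ubiquitin ligase gene CBLL1, whose product Hakai targets E-cadherin, had a log2 fold change of 0.10 (adjusted p of 0.277). Of 19 tested genes of the beta-catenin destruction complex and its regulators, 2 were higher and 1 lower, with a median of -0.0387. AXIN2, a scaffold of the complex and a target of beta-catenin itself, rose by 0.27 (adjusted p of 2.99e-08), to 208 CPM in ELAPOR1 cells against 172 CPM in vector cells, while CTNNB1 mRNA was slightly lower. AXIN1 at 0.16 and the casein kinase gene CSNK1D at -0.10 were called narrowly. AXIN1 lost its call without ELAPOR1 replicate 2 or 3 or vector replicate 1 or 3 (adjusted p of 0.0620 to 0.245), and CSNK1D without ELAPOR1 replicate 1 or 2 or vector replicate 1 or 3 (0.0589 to 0.145). APC and GSK3B had log2 fold changes of -0.04 each and were not called.

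Of 11 tested nuclear partners of beta-catenin, 2 were higher and 2 lower, with a median of 0.0645. The coactivator gene EP300 rose by 0.26 (adjusted p of 2.32e-05) and lost its call with limma on log2(FPKM + 1), at 0.115. The inhibitor gene CTNNBIP1 is given above, and the corepressor gene TLE3 fell by 0.17, a call lost without ELAPOR1 replicate 3 at 0.0809. TCF7L2, the main TCF factor of colon epithelium, had a log2 fold change of 0.06 (adjusted p of 0.551).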

How the data were processed

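Per the submitters' processing notes, the build was GRCh38, and the tools named are HISAT2 2.0.1, cutadapt 1.9.1, DESeq2 and HTSeq 0.6.1. The authors deposited raw read counts and FPKM (scaled to exonic length and library total) per gene. Their comparison table, with log2 fold changes and adjusted p-values per the file headers, gave -0.76 for CDH1 and 1.05 for CDH17 in the authors' deposited table.

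Column names were matched to libraries with K as ELAPOR1 and NC as negative control. The two-sided quasi-likelihood test of edgeR 4.0.16 (R 4.3.3) was run on the counts after filterByExpr and TMM scaling, with Benjamini-Hochberg adjustment over 16003 genes. The filter corresponds to 0.537 CPM in 3 libraries. Standard errors derive from the fold change and F, and CPM uses TMM factors. Within groups, mean chi-square per gene between libraries was 2.45 to 3.64, above the 1 of sampling noise. Alternatives used DESeq2 1.42.0 and limma 3.58.1. Calculations were tested on simulated data.

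Members and lists were chosen with earlier results of these data known. The rule for named genes takes the members, ELAPOR1, up to 3 called genes of largest change per list (or the tested gene of smallest p), the 4 genes most like CDH1 and CDH17, and called genes within 500 kb; other genes were named with their values already seen. Some genes and 1 of the 10 lists, all counted in the totals, are not reported here by name. Coordinates are those of the deposited table; promoter sequence is from RefSeq (GRCh38.p14), in which 5 of the 9 members had windows.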

Additional observations from a re-analysis of the deposited data

How the results depend on the processing

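The 4 calls among the 9 genes were 4 under all alternatives but leave-one-out fits, which gave 4 to 5, CTNNA2 being the addition without ELAPOR1 replicate 3 or vector replicate 3. The count of all called genes was 2133 with limma on log2(FPKM + 1), 2098 on log2(FPKM + 0.1), 1378 with no filter on FPKM and 2245 at an adjusted p under 0.01, fewer by construction, against 3427; for FPKM the cause was not tested. The list genes called were 24, 24 and 17 in the 3 FPKM fits, against 38. Leaving out 1 library gave 2723 to 3187 genes and 31 to 37 list genes. With the replicate block, 3361 genes, 38 list genes and the same number of 4 members were called; of the named genes COG8 lost its call, at an adjusted p of 0.0501. Between same-numbered libraries, the correlation of deviations from group means was -0.022, -0.035 and -0.021, and between the other pairs -0.0028 to 0.025. All are small, but with 3 libraries per group they cannot show whether same-numbered libraries were paired. Of 40 called genes named by rule, 22 kept the call under every alternative that gave a value, 12 lost it without 1 library and 6 (among them DSP, EP300, SLC7A6 and SRC) only in FPKM fits (adjusted p of 0.0727 to 0.251), and 0 changed direction. With GENCODE 29 lengths, chosen after seeing the data, CTNNB1 over CDH1 was 1.06 in ELAPOR1 cells and 0.688 in vector cells. Depth limits CDH2 and CDH3.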

Other observations

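The deposited table annotates 154 genes to the adherens junction pathway, 4 of them among the 9 cadherin and catenin genes, a list looked at after the other results were seen. The annotation holds pseudogenes such as ACTG1P3 and CTNNA1P1 and a dehydrogenase gene, HSD17B11, which was called higher, but not CTNNA1 or JUP. Its shares are those of the annotation as given, not of junction genes alone. Of its 77 tested genes, 12 were called higher and 12 lower, 15.6% each, where 10.0% and 11.4% of all tested genes were, with a median log2 fold change of 0.0188. The lower ones include CDH1 and CTNNB1, which were selected on this difference; without the 4 shared genes, 12 of 73 were higher and 10 lower, 16.4% and 13.7%. Of receptor genes in it, singled out after their values were seen, FGFR1, IGF1R and TGFBR2 rose by 0.40, 0.34 and 0.28 on the log2 scale and EGFR fell by 1.11, to 1.49 CPM in ELAPOR1 cells against 3.20 CPM in vector cells (edgeR, adjusted p of 9.42e-08, 3.77e-06, 1.02e-08 and 0.0028). INSR rose by 0.30 and MET fell by 0.11 (adjusted p of 0.0317 and 0.02). The INSR call was lost without ELAPOR1 replicate 1 or 2 or vector replicate 1 or 2 (0.0719 to 0.319) and the MET call without ELAPOR1 replicate 2 or 3 or vector replicate 1 (0.0732 to 0.094). PARD3, which encodes a polarity scaffold at junctions, fell by 0.36, to 24 CPM in ELAPOR1 cells against 30.8 CPM in vector cells (adjusted p of 0.0004). With limma on log2(FPKM + 1) and no filter, EGFR, FGFR1 and IGF1R were not called (adjusted p of 0.126, 0.0601 and 0.0938).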
